A study of Mus musculus with 8 samples.

Results

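The genes that encode the collagen IV and laminin networks of the basement membrane, together with their linkers and SPARC, were examined in mouse embryonic stem cells (mESCs). The cells were sorted by the fluorescence of a KLF3-GFP reporter, or overexpressed KLF3 or GFP. The 10 genes (Col4a1, Col4a2, Lama1, Lama5, Lamb1, Lamc1, Nid1, Nid2, Hspg2 and Sparc) were chosen by name, with earlier results of these data known. The other gene lists below were chosen with the same knowledge, so the counts describe these genes and are no test of them. All 10 were found once in each table, among 13056 protein-coding genes in the table of sorted cells and 14319 in the table of the overexpression experiment. RNA was sequenced from 8 samples in 4 groups of 2. All were mESCs labelled C57BL/6(F) x 129/sv(M) for strain and 3.5 days for developmental stage, grown on gelatin in serum medium with leukaemia inhibitory factor. Cells with and without KLF3-GFP fluorescence (KLF3-GFP-positive, KLF3-GFP-negative) were sorted, 500 cells per sample, from a line grown from picked colonies in which the CAGGS promoter drives the N-terminal part of KLF3, without its DNA-binding domain, fused to GFP, with DsRed under EF1α as a marker of the construct. The sorted cells were sequenced after Smart-seq2, which amplifies full-length cDNA from few cells. KLF3-overexpressing and GFP-overexpressing cells were picked clones of the R26 line, which carries the M2rtTA transactivator at Rosa26, with codon-optimized Klf3 or GFP inserted at the Col1a1 locus and induced with doxycycline for 72 hours, and their libraries were made from poly(A) RNA.

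The authors deposited FPKM (fragments per kilobase of transcript and library size), which allows levels of genes of different length to be compared, as 1 mean of 2 replicates per group. The spread between the replicates and the number of reads are unknown, so no SD, interval or test stands beside any value below. Differences are given on the log2(FPKM + 1) scale, on which changes of genes with low values come out too small, and a gene was counted as upregulated or downregulated past a 2-fold change on this scale. Genes whose mean of both groups reached 1 FPKM are called tested here. The median difference was 0.03 over the 9212 genes tested in sorted cells and -0.18 over the 11179 genes tested in the overexpression experiment, where scaling the columns by their median ratio removes this shift and moves the share of all genes that were upregulated from 6.60% to 10.4% and of those downregulated from 10.1% to 6.25%. Klf3 itself stood at 107 FPKM in KLF3-GFP-negative cells against 122 FPKM in KLF3-GFP-positive ones, 58.7 FPKM in GFP-overexpressing and 47.8 FPKM in KLF3-overexpressing cells, and reads of the codon-optimized transgene need not align to this gene. Ddx3y and Uty on chromosome Y were at 0.1 FPKM, the table's lowest value, in KLF3-overexpressing cells and at 3.34 and 3.56 FPKM in GFP-overexpressing cells, and Eif2s3y fell from 30.9 to 1.67 FPKM. Clone and transgene cannot be told apart in this experiment.

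Basement membranes are thin sheets of matrix on which epithelia and endoderm rest. Collagen IV chains wind into a triple helix and join into a network, and laminins, trimers of an alpha, a beta and a gamma chain, polymerize on the cell surface into another. Nidogens and perlecan bridge both networks, and SPARC is a secreted glycoprotein that binds collagen. In the mouse embryo the primitive endoderm and its derivative the parietal endoderm are known for very high secretion of collagen IV and laminin, and mouse parietal endoderm is a classical source of these proteins.

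In KLF3-GFP-positive compared with KLF3-GFP-negative mESCs, all 10 genes were higher, by 0.72 to 5.81 on the log2(FPKM + 1) scale, with a median of 4.21. Of them 8 were upregulated by more than 2-fold, where 13.8% of all genes tested were, and 7 by more than 4-fold, where 3.82% of all genes were. None was downregulated, against 8.32% of all genes. In KLF3-overexpressing compared with GFP-overexpressing mESCs, 8 of the 10 genes were upregulated, where 6.6% of all genes tested were, 4 of them by more than 4-fold, where 0.564% of all genes were. Nid1 was downregulated, as were 10.1% of all genes, and Nid2 was lower by less than 2-fold. The median of the 10 genes in this experiment was 1.70. In FPKM the 10 genes together went from 64.8 to 1522, or from 0.00716% to 0.161% of the sum over all genes, between KLF3-GFP-negative and KLF3-GFP-positive cells, and from 337 to 1031, or from 0.0551% to 0.123%, between GFP-overexpressing and KLF3-overexpressing cells. Sparc was the largest term of each sum, and without it they went from 31.3 to 541 FPKM and from 199 to 547 FPKM. All 10 genes passed the minimum of a mean of 1 FPKM. In sorted cells Col4a2, Lama1, Nid2 and Hspg2 were below 1 FPKM in KLF3-GFP-negative cells and passed it through KLF3-GFP-positive cells, and the same 10 genes and counts result without a minimum. These are bulk samples, so more cells that express a gene and more RNA per cell cannot be told apart.

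**Figure D1:**
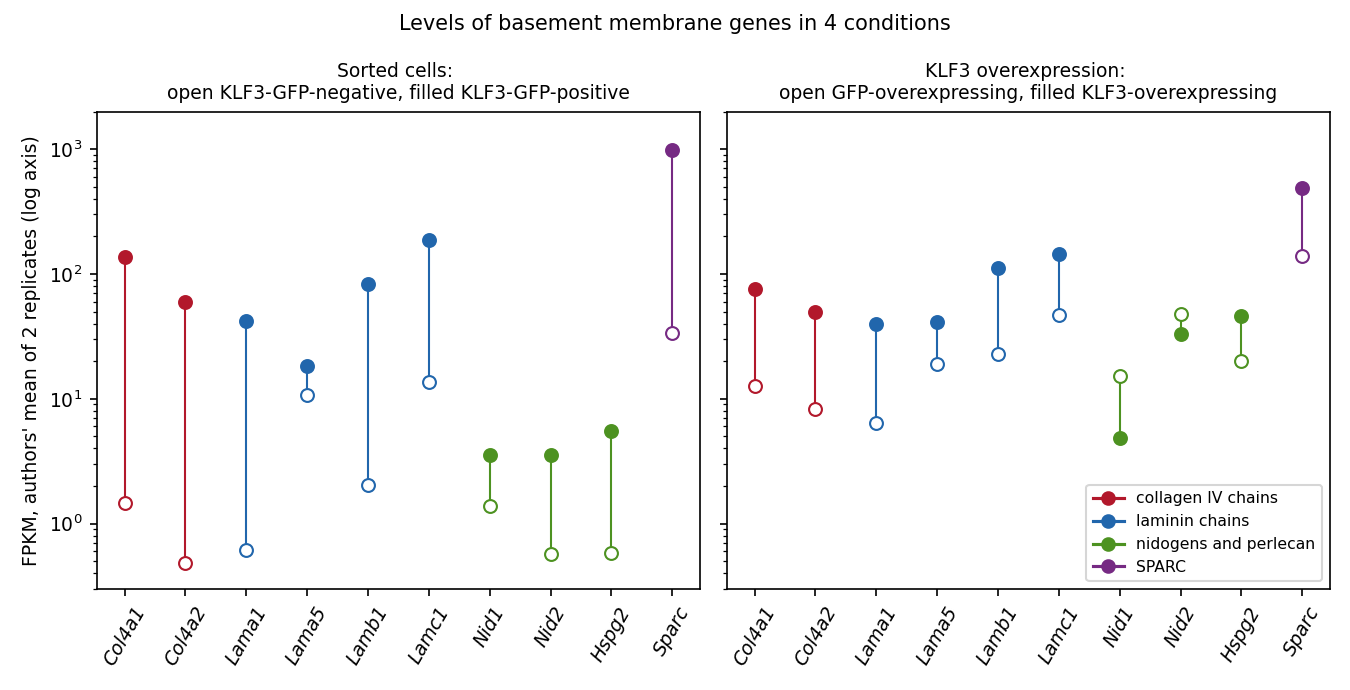
Level of each gene (vertical log axis, FPKM, the authors' mean of 2 replicates) in sorted cells (left) and in the overexpression experiment (right). Open circles are KLF3-GFP-negative or GFP-overexpressing cells and filled circles KLF3-GFP-positive or KLF3-overexpressing cells. All 10 filled circles lie above the open ones on the left, and those of Nid1 and Nid2 lie below them on the right.

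Col4a1 and Col4a2 encode the chains of the most widespread collagen IV trimer. Col4a1 (ENSMUSG00000031502, minus strand of chr8:11198423-11312826 in mm10) stood at 1.47 FPKM in KLF3-GFP-negative cells against 138 FPKM in KLF3-GFP-positive ones, a 93.7-fold ratio and a log2 difference of 5.81. On this scale it ranked 10 of the 9212 genes tested. In the overexpression experiment Col4a1 had 12.7 FPKM with GFP and 75.5 FPKM with KLF3, a 5.94-fold ratio and a log2 difference of 2.48 at a pseudocount of 1. Col4a2 (ENSMUSG00000031503, plus strand of chr8:11312805-11449287) stood at 0.48 FPKM in KLF3-GFP-negative cells against 59.4 FPKM in KLF3-GFP-positive ones (log2 difference 5.35). With GFP it had 8.32 FPKM and with KLF3 49.5 FPKM, a 5.95-fold ratio (log2 difference 2.44). Which of Col4a1, Col4a2 and Lama1 differed most depended on the setting. With a pseudocount of 0.1, Col4a2 (6.68) was above Col4a1 (6.46) in sorted cells, and Lama1 (2.62) was above Col4a1 (2.56) on overexpression. The collagen chains moved by nearly the same factor on overexpression, and the ratio of Col4a1 to Col4a2 was 1.53 with GFP and 1.52 with KLF3. In sorted cells this ratio was 3.06 in KLF3-GFP-negative cells, where both levels were low, and 2.32 in KLF3-GFP-positive cells. Col4a1 stood above 38.4% of the listed genes in KLF3-GFP-negative cells and above 93.5% in KLF3-GFP-positive ones. In GENCODE M21 the genes Gm15418, Gm15419, Gm8818 and Gm48682 overlap Col4a1, Col4a2, Lamc1 and Nid1 on the other strand. Reads from shared stretches cannot be assigned to a strand in sorted cells. On the same strand Gm44716, Gm38009, Mir7005 and Mir7018 overlap Col4a1, Lamc1, Lama5 and Hspg2. The chains Col4a3, Col4a4, Col4a5 and Col4a6 were not among the genes listed in either table.

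The Col4a1 and Col4a2 genes lie head to head and share the base pairs from 11312805 to 11312826 of chromosome 8, so that 1 short stretch holds both promoters. Their RefSeq promoter windows (GRCm38.p6, the assembly of mm10), which reach from 250 bases before to 50 bases after the start, are shown because these genes changed together and because the windows share 78 bases, read from opposite strands. The window of Nid1, the gene that was downregulated on overexpression, is shown for comparison. Capitals mark CACCC or its reverse GGGTG, the core of the box that Krüppel-like factors are known to bind.
Col4a1 (minus strand of chr8:11312777-11313076): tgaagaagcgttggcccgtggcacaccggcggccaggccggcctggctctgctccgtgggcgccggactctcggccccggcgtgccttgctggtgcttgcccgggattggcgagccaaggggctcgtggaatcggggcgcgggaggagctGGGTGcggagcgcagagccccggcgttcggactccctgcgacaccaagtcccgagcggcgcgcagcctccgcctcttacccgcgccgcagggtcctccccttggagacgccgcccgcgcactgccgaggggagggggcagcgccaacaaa
Col4a2 (plus strand of chr8:11312555-11312854): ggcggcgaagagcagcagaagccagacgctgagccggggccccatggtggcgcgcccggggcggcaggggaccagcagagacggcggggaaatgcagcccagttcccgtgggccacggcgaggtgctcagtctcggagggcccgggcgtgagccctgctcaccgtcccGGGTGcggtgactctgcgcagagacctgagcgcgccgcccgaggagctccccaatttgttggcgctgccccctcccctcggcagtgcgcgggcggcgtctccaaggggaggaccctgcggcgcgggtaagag
Nid1 (plus strand of chr13:13437352-13437651): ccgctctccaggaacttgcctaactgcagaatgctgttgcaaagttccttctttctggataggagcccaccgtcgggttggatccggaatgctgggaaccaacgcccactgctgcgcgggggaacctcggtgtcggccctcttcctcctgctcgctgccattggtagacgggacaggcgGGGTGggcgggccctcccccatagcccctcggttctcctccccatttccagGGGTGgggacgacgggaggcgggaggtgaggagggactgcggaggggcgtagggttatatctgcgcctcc

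Windows of 7 of the 10 genes were matched by symbol. CACCC occurred on either strand once in the windows of Col4a1, Col4a2, Lamb1 and Sparc, 2 times in that of Nid1, 3 times in that of Hspg2 and not in that of Lama5. Of the 32851 promoter windows of 27025 genes, 57.5% held it at least once and 9.35% held it 3 times or more. The looser pattern NCNCNCCC, which can overlap CACCC, was found in all of these windows except that of Sparc, 16 times in that of Hspg2 and 3 to 5 times in the others, and in 67.8% of all windows. The GATA core GATAA was searched on both strands and found in none of the 7 windows, against 25.4% of all windows. The SOX core ACAAT (31.0% of all windows) and the TATA box letters TATAAA (13.6%) were likewise found in none of the 7. The windows were rich in G and C, with 55.3% in Sparc and 63.7% to 74% in the others, against a median of 52.7% over all windows. Hspg2, which was upregulated in both experiments, had more CACCC matches in its window than Nid1, whereas Col4a1, Col4a2, Lamb1, Sparc and Lama5 had fewer. A match or its absence is a description of these letters and shows no binding.

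The laminin chains differed among themselves more than the collagen chains. Lama1 (ENSMUSG00000032796, plus strand of chr17:67697265-67822645) encodes the alpha chain of the early embryonic laminin. It stood at 0.62 FPKM in KLF3-GFP-negative cells against 41.9 FPKM in KLF3-GFP-positive ones (log2 difference 4.73), and 6.38 FPKM with GFP and 39.7 FPKM with KLF3 (log2 difference 2.46). Lama5 (ENSMUSG00000015647, minus strand of chr2:180176373-180225859) encodes an alpha chain that mESCs are known to make and to use as a substrate in culture. Its level went from 10.6 to 18.2 FPKM in sorted cells, a log2 difference of 0.72 that did not pass the 2-fold limit, and from 19.0 to 41.2 FPKM on overexpression, where the log2 difference of 1.08 just passed it. Of all genes tested, 20.2% had a larger difference than Lama5 in sorted cells and 5.44% on overexpression. As a result the order of the alpha chains turned in sorted cells. Lama1 made up 5.51% of the summed FPKM of Lama1 and Lama5 in KLF3-GFP-negative cells against 69.7% in KLF3-GFP-positive ones. On overexpression its share went from 25.1% to 49.0%.

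Lamb1 (ENSMUSG00000002900, plus strand of chr12:31265234-31329644) and Lamc1 (ENSMUSG00000026478, minus strand of chr1:153218922-153332786) encode the beta and gamma chains that trimerize with either of these alpha chains. Lamb1 stood at 2.04 FPKM in KLF3-GFP-negative cells against 82.8 FPKM in KLF3-GFP-positive ones (log2 difference 4.78), and 22.7 FPKM with GFP and 113 FPKM with KLF3 (log2 difference 2.26). Lamc1 had the highest level of the laminin chains in each of the 4 groups. It rose from 13.6 to 188 FPKM in the sorted experiment (log2 difference 3.70), and after overexpression from 46.9 to 144 FPKM (log2 difference 1.60). Because Lamb1 changed more than Lamc1, the ratio of Lamc1 to Lamb1 was lower in both cases, 6.65 in KLF3-GFP-negative against 2.28 in KLF3-GFP-positive cells and 2.07 with GFP against 1.28 with KLF3. Lamb2, which encodes another beta chain, had a mean below the minimum of 1 FPKM in sorted cells. On overexpression Lamb2 had 9.90 FPKM with GFP and 10.2 FPKM with KLF3, which did not pass the 2-fold limit. Of the list of 7 further laminin chains, none was tested in sorted cells, and none of those tested on overexpression passed the limit.

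The nidogens and perlecan, which connect the networks, were, with Lama5, the genes of smallest absolute difference in both experiments. Nid1 (ENSMUSG00000005397, plus strand of chr13:13437602-13512275), which binds the laminin gamma chain, stood at 1.38 FPKM in KLF3-GFP-negative cells against 3.55 FPKM in KLF3-GFP-positive ones, a 2.57-fold ratio whose log2 difference of 0.93 with the pseudocount did not pass the limit. With a pseudocount of 0.1 the difference was 1.30 and passed it. On overexpression Nid1 was lower, with 15.3 FPKM with GFP and 4.88 FPKM with KLF3 (log2 difference -1.47), and 97.6% of the genes tested had a higher difference. With the trend of differences with genomic span removed, Nid1 stood at -0.99 and no longer passed the limit, which leaves 8 upregulated and 0 downregulated of the 10 genes. Nid2 (ENSMUSG00000021806, plus strand of chr14:19751257-19811787), a close relative of Nid1, had 0.57 and 3.56 FPKM in the negative and positive fractions (log2 difference 1.54), and 47.8 and 33.1 FPKM with GFP and KLF3 (log2 difference -0.52). Its last 437 bases overlap Rtraf on the other strand in GENCODE M21, a gene with 329 and 384 FPKM in the negative and positive fractions, and the study names a strand-specific kit only for the overexpression experiment, so the low values of Nid2 in sorted cells are uncertain. At the main setting both nidogens thus lay on opposite sides of 0 in the experiments, and the difference between the experiments was not tested. With the span trend removed Nid2 stood at -0.04 on overexpression, so its side of 0 there is uncertain.

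Hspg2 (ENSMUSG00000028763, plus strand of chr4:137468769-137570630) encodes perlecan, a heparan sulphate proteoglycan. It stood at 0.58 FPKM in KLF3-GFP-negative cells against 5.48 FPKM in KLF3-GFP-positive ones (log2 difference 2.04), and 19.9 FPKM with GFP and 46.3 FPKM with KLF3 (log2 difference 1.18). With the columns scaled to equal sums outside ribosomal protein genes, Hspg2 (0.96) and Lama5 (0.86) did not pass the limit on overexpression. Nid1 was less abundant relative to the laminin gamma chain in KLF3-GFP-positive and in KLF3-overexpressing cells than in the cells they were compared with. The ratio of Lamc1 to Nid1 in FPKM was 9.83 in KLF3-GFP-negative cells against 53.1 in KLF3-GFP-positive ones, and 3.07 with GFP and 29.5 with KLF3.

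Sparc (ENSMUSG00000018593, minus strand of chr11:55394500-55420080) was the most abundant of the 10 genes in each group. It stood at 33.5 FPKM in KLF3-GFP-negative cells against 981 FPKM in KLF3-GFP-positive ones (log2 difference 4.83), where 185 genes of the table stood higher. On overexpression it went from 138 to 484 FPKM (log2 difference 1.80), above 98.4% of the listed genes with KLF3. The share of genes with a larger difference than Sparc was 0.217% in sorted cells and 0.903% on overexpression.

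**Figure D2:**
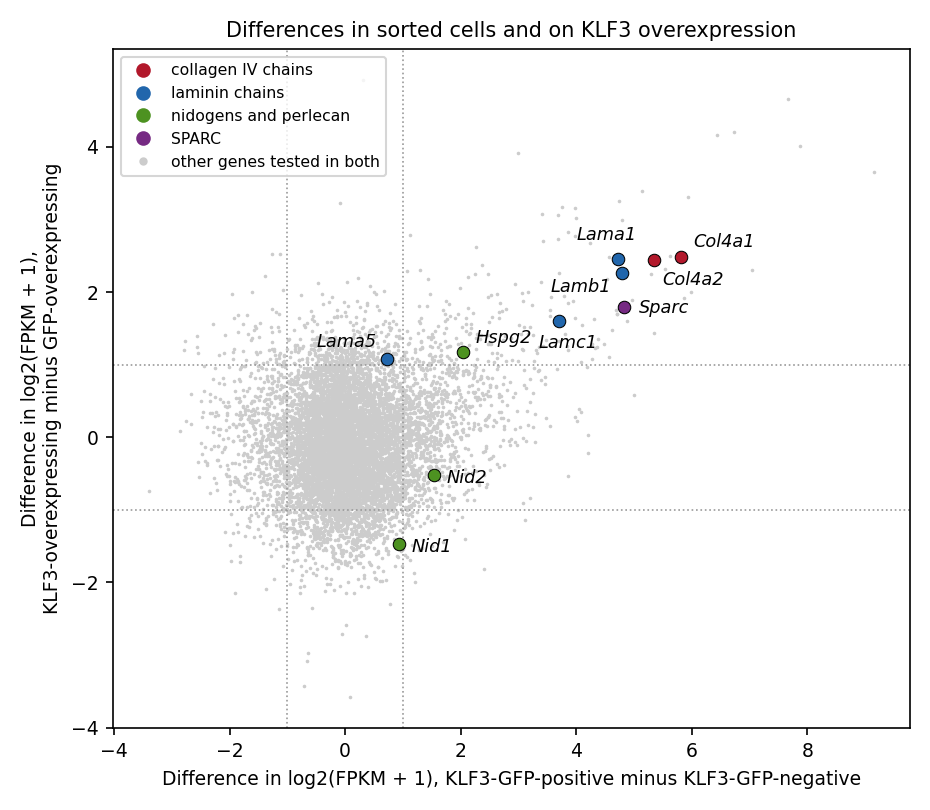
Difference in log2(FPKM + 1) in sorted cells (horizontal axis) and on overexpression (vertical axis) for the 8887 genes tested in both (grey) and the 10 basement membrane genes (coloured by role). Dotted lines mark 2-fold changes. Collagen IV, Lama1, Lamb1, Lamc1 and Sparc lie to the upper right, and Nid1 and Nid2 lie below 0 on the vertical axis only.

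Across both experiments, Col4a1, Col4a2, Lama1, Lamb1, Lamc1 and Sparc had differences from 3.70 to 5.81 in the sorted cells, and after overexpression from 1.60 to 2.48, and the other 4 genes had smaller differences in both. The experiments use different cells and library types and share no samples. Upregulated in both were 7 of the 10 genes, where 2.55% of the 8887 genes tested in both were. More than 4-fold in both were Col4a1, Col4a2, Lama1 and Lamb1, among 40 genes in all, or 0.45%. Of the genes outside the lists examined here, the 5 nearest to the medians of the 10 genes, by the Euclidean distance over both differences, were Foxq1 (distance 0.12), F3 (0.19), Cxcl10 (0.32), Cxcl16 (0.38) and Fam213a (0.42). Foxq1, a forkhead transcription factor gene, went from 0.83 to 35.4 FPKM in the sorted cells, and after overexpression from 1.33 to 6.24 FPKM. F3, which encodes tissue factor, went from 3.14 to 70.3 FPKM and from 5.47 to 17.8 FPKM. This likeness rests on 2 differences per gene.

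Collagen IV needs proline and lysine hydroxylation and chaperones to fold before export. Of 18 genes of collagen modification, folding and export, 13 were tested in sorted cells. All 13 were upregulated, with a median of 2.04, where 13.8% of all genes tested were. Of the 13, 1 was below 1 FPKM in KLF3-GFP-negative cells and was tested only through KLF3-GFP-positive cells. The largest differences were those of P4ha2, a subunit of collagen prolyl hydroxylase (3.53 to 106 FPKM, log2 difference 4.56), of Serpinh1, the collagen chaperone HSP47 (18.4 to 430.4 FPKM, 4.47), and of P4ha1 (2.12 to 38.7 FPKM, 3.67). On overexpression 14 were tested, 3 were upregulated and none was downregulated, with a median of 0.50, where 6.6% of all genes tested were upregulated. Serpinh1 went from 73.6 to 181 FPKM (1.29), P4ha2 from 12.6 to 28.1 FPKM (1.10) and Ppib, a prolyl isomerase of the endoplasmic reticulum, from 236 to 489 FPKM (1.05). Over the alternative settings of pseudocount, scaling and span trend, the number upregulated lay between 12 and 13 in sorted cells and between 1 and 5 on overexpression.

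Other components and crosslinkers of basement membranes did not move as a block. In sorted cells 6 of 18 were tested, of which 4 were upregulated and 1 downregulated, against 13.8% and 8.32% of all genes tested. Of the upregulated genes 2 (Loxl2 and Pxdn) were tested only through KLF3-GFP-positive cells. Tinagl1, which encodes a laminin-binding matricellular protein, rose from 2.45 to 53.5 FPKM (log2 difference 3.98). Loxl2, a lysyl oxidase that crosslinks collagen IV, went from 0.48 to 5.56 FPKM (2.15), and Agrn, which encodes the proteoglycan agrin, from 4.42 to 19.5 FPKM (1.92). Col18a1, a basement membrane collagen, was the downregulated gene, with 4.19 and 1.42 FPKM (-1.10). On overexpression 10 were tested, of which Tinagl1 was upregulated (4.21 to 45.5 FPKM, 3.16) and Fbln1 (19.3 to 7.79 FPKM, -1.21) and Smoc1 (6.48 to 2.34 FPKM, -1.16) were downregulated. In that experiment 6.6% of all genes tested were upregulated and 10.1% downregulated. The median of the list was -0.14, and over the same alternatives it lay between -0.37 and 0.29 with 0 to 3 genes downregulated.

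Of 14 cell surface receptors for matrix, 8 were tested in sorted cells, with 3 upregulated and 2 downregulated and a median of 0.06. The shares over all genes tested were 13.8% upregulated and 8.32% downregulated. Sdc4, a syndecan, went from 239.98 to 1270 FPKM (log2 difference 2.40) and Itgav, an integrin alpha subunit, from 3.84 to 16.3 FPKM (1.84). Bcam, a receptor of the laminin chain that Lama5 encodes, went from 9.56 to 2.18 FPKM (-1.73). The laminin receptor subunit Itga6 fell as well, from 11.1 to 3.25 FPKM (-1.51), whereas its partner Itgb1 rose from 15.4 to 38.1 FPKM (1.25). On overexpression none of the 10 receptors tested passed the 2-fold limit in either direction, where 6.6% of all genes were upregulated and 10.1% downregulated. The largest differences were those of Itga6 (33.9 to 17.7 FPKM, -0.90), Itgav (3.05 to 6.56 FPKM, 0.90) and Itgb1 (63.3 to 33.8 FPKM, -0.88). The same alternatives gave 0 to 1 upregulated and 0 to 2 downregulated receptors. Itgb1 thus lay on opposite sides of 0 in the experiments, which was not tested.

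Of 14 genes of matrix remodelling, 6 were tested in sorted cells with 5 upregulated, and 10 on overexpression with 2 upregulated. None was downregulated at the main setting, and the same alternatives gave 2 to 4 upregulated genes on overexpression. Among all genes tested, 13.8% were upregulated and 8.32% downregulated in sorted cells, and 6.6% and 10.1% on overexpression. Mmp15, Timp3 and Plat were below 1 FPKM in KLF3-GFP-negative cells and were tested only through their level in KLF3-GFP-positive cells. The minimum removed the gelatinase genes Mmp2 (1.06 and 0.28 FPKM) and Mmp9 (0.93 and 0.23 FPKM), which were lower in KLF3-GFP-positive cells, so the count in sorted cells is shaped by the minimum. The largest differences among the genes tested in sorted cells were those of the protease inhibitor genes Timp3 (0.40 to 4.14 FPKM, 1.88) and Timp2 (4.55 to 14.4 FPKM, 1.48) and of Plat, tissue plasminogen activator, which parietal endoderm is known to secrete (0.14 to 2.93 FPKM, 1.79). On overexpression Timp2 rose from 4.80 to 21.9 FPKM (1.98) and Bmp1, a procollagen protease, from 0.73 to 2.92 FPKM (1.18), and Timp3 had 0.75 and 2.22 FPKM (0.88). Bmp1 and Timp3 were below 1 FPKM with GFP and were tested only through KLF3-overexpressing cells.

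**Figure D3:**
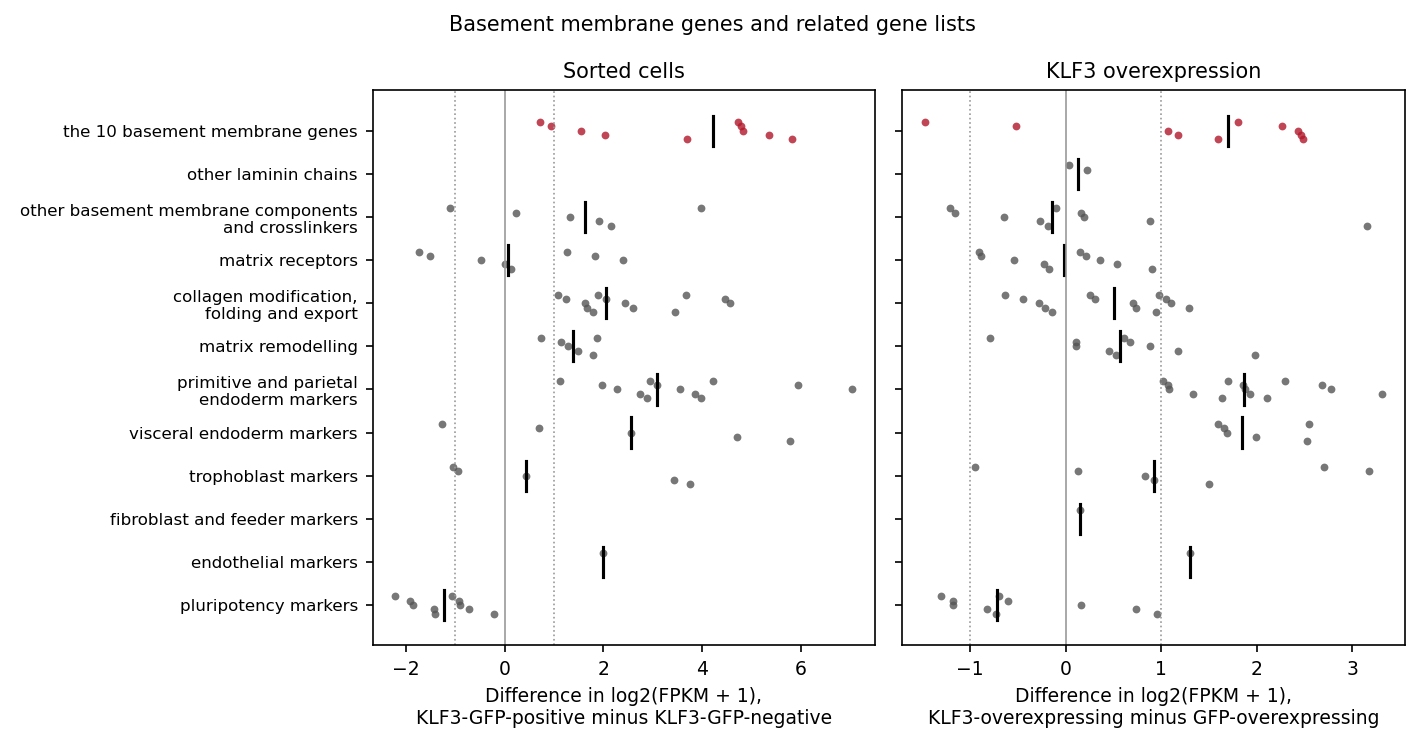
Difference in log2(FPKM + 1) (horizontal axis) of every tested gene of each list in sorted cells (left) and on overexpression (right). Red points are the 10 basement membrane genes, grey points the other lists, black bars the medians of lists and dotted lines 2-fold changes. Primitive and parietal endoderm markers lie to the right in both panels, and the median of the matrix receptors is near 0 in both, with 5 of 8 receptors past the 2-fold lines on the left.

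Markers of primitive and parietal endoderm were higher together with most of these genes in both experiments. Of 16 primitive and parietal endoderm markers, 13 were tested in sorted cells and 14 on overexpression. Every one tested was upregulated, where 13.8% and 6.6% of all genes tested were. The medians of these markers were 3.08 and 1.87. Over the same alternatives, 11 to 14 were past the limit on overexpression. Their summed level went from 11.1 to 539 FPKM and from 31.1 to 211 FPKM. Dab2 (0.78 to 232.8 FPKM), Cited1 (1.02 to 123 FPKM) and Pth1r (0.61 to 29.2 FPKM) had the largest differences in sorted cells. Cited1 (1.80 to 26.8 FPKM), Krt19 (9.28 to 69.7 FPKM) and Pth1r (2.2 to 19.5 FPKM) had the largest on overexpression. Among 10 visceral endoderm markers, 3 of 5 tested were upregulated and 1 was downregulated in sorted cells, where 8.32% of all genes tested were downregulated. On overexpression 6 of 6 tested were upregulated. The summed levels of this list were 15.9 and 237 FPKM in sorted cells and 5.39 and 41.3 FPKM on overexpression. Amn went from 2.39 to 184.9 FPKM and Cubn from the lowest value of 0.1 to 27.8 FPKM in sorted cells, while Afp was not listed in either table. Cubn and Ihh, both at 0.1 FPKM in KLF3-GFP-negative cells, could be tested only as upregulated genes. Of the primitive and parietal endoderm markers, 9 of the 13 tested in sorted cells and 6 of the 14 tested on overexpression were below 1 FPKM in the control column and reached the minimum only through the other one, as did 4 of the 6 visceral endoderm markers on overexpression. These counts are therefore shaped by the minimum. How far cells of these types account for the collagen IV and laminin values was not tested.

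Fibroblasts and feeder cells, on which the overexpressing clones had been selected, also make collagen IV and laminin. Their defining collagen genes were near the lowest value or not listed. Of 17 markers, 3 were listed in sorted cells with none above 0.45 FPKM, and Col1a1 and Col3a1 were not listed there. On overexpression 8 were listed, Col1a1 with 0.23 and 0.29 FPKM and Col1a2 with 0.18 and 0.40 FPKM, and the highest, Thy1, had 2.72 and 3.14 FPKM. Of 8 endothelial markers, only Esam passed the minimum, with 1.08 and 7.31 FPKM in sorted cells and 1.23 and 4.49 FPKM on overexpression. Among 10 trophoblast markers Krt18 and Krt8 had the largest differences in both experiments. These keratins do not stand for the list, whose tested genes had medians of 0.44 in sorted cells and 0.93 on overexpression, within the 2-fold limit. Krt18 went from 12.7 to 183 FPKM and Krt8 from 18.3 to 206 FPKM in sorted cells. On overexpression Krt18 went from 36.6 to 339.6 FPKM and Krt8 from 26.3 to 176 FPKM, while Elf5 was not listed in either table. In the trophoblast list 2 of 5 genes tested were upregulated and 1 downregulated in sorted cells, and 3 of 7 were upregulated on overexpression. The shares over all genes tested were 13.8% upregulated and 8.32% downregulated in sorted cells, and 6.6% upregulated on overexpression. Of the 7, 2 were below 1 FPKM with GFP and were tested only through KLF3-overexpressing cells, and 1 of these was upregulated. Of the 5, 1 was below 1 FPKM in KLF3-GFP-negative cells and 2 in KLF3-GFP-positive cells. The same alternatives gave 0 to 2 downregulated in sorted cells, and 3 to 5 upregulated with 0 to 1 downregulated on overexpression. The 10 pluripotency markers, which define mESCs, were all listed in both tables. Of these 6 were downregulated in sorted cells and 3 on overexpression, where 8.32% and 10.1% of all genes tested were. None of these markers was upregulated in either experiment at the main setting. The alternatives gave 6 to 8 downregulated in sorted cells. On overexpression they gave 1 to 5 downregulated and 0 to 1 upregulated. Nanog went from 20.8 to 5.03 FPKM in the sorted cells, and after overexpression from 254.5 to 102.6 FPKM. Some of the other markers were higher on overexpression without passing the limit. The summed level of the 10 markers went from 21961 to 11486 FPKM in sorted cells, but from 6466 to 8589 FPKM on overexpression. Dppa5a was the largest term of each sum, with 20569 and 10977 FPKM in sorted cells and 3794 and 6334 FPKM on overexpression. The sums therefore follow this gene and do not stand for the list, whose median difference was -1.24 in sorted cells and -0.72 on overexpression.

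The basement membrane genes are long, and in the overexpression experiment the differences of all genes varied with genomic span. The median difference was 0.35 over the shortest of 5 equally filled span classes and -0.49 over the longest class, which held all of the 10 genes except Lama5 and Sparc. Among the longest genes 2.42% were upregulated and 16.8% downregulated. The upregulated basement membrane genes therefore moved against the trend, and with the trend removed Col4a1 stood at 2.94, Lama1 at 2.92, Lamb1 at 2.74 and Lamc1 at 2.06. Nid2 stood at -0.04, close to the trend of its length. In sorted cells the medians of the 5 classes lay between -0.03 and 0.12, and removing the trend moved the 10 genes by 0.02 to 0.13.

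**Figure D4:**
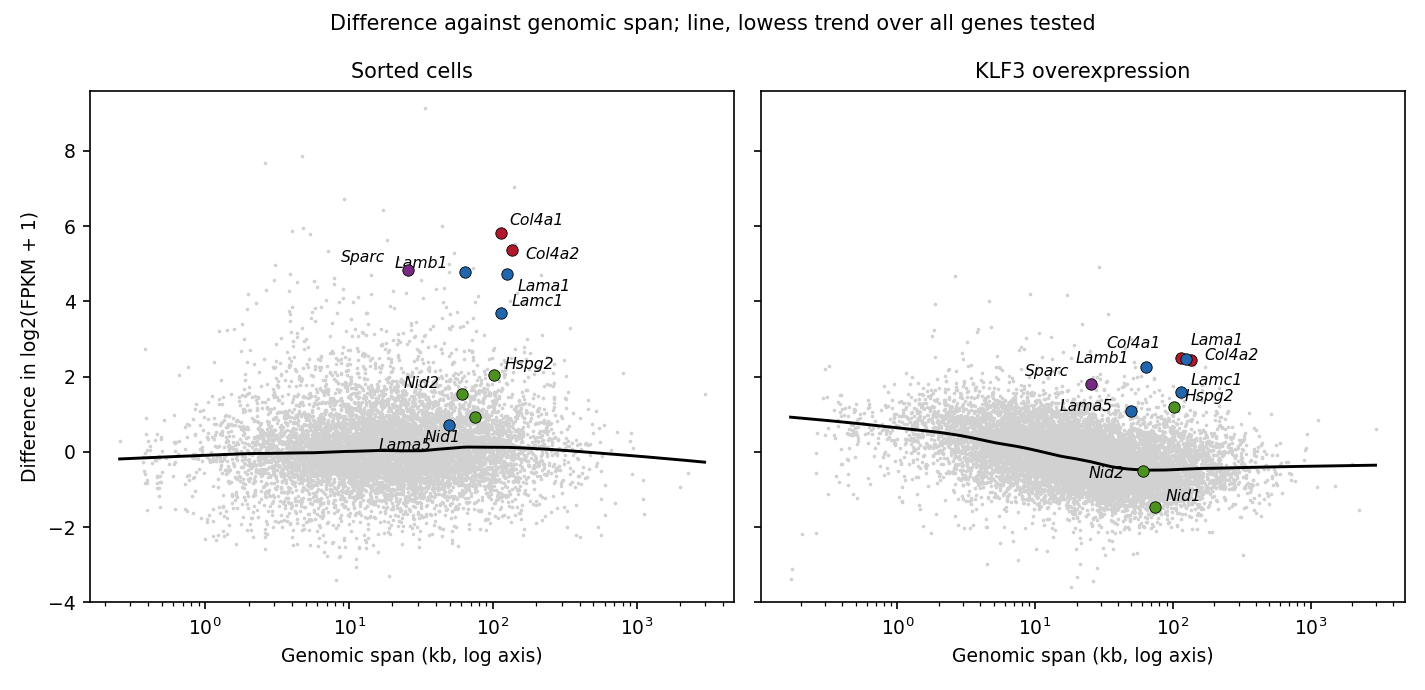
Difference in log2(FPKM + 1) (vertical axis) against genomic span in kb (horizontal log axis) for all genes tested (grey) and the 10 basement membrane genes (coloured by role as in the other plots), with the lowess trend as a black line. On the right the trend falls from short to long genes, Nid2 lies on it, and the collagen IV and laminin genes lie above it.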

How the data were processed

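RNA was sequenced from 8 mESC samples in 4 groups of 2, assigned by GEO's labels. The authors aligned reads to mm10 with the GENCODE annotation by STAR (2.6.0 in the submitters' processing notes) and computed FPKM with Cufflinks (2.2.1). The deposited FPKM tables hold 1 column per group, the authors' mean of the replicates, rounded to 2 decimals, with 0.1 as the lowest value and protein-coding genes only. Raw counts were not used here, the depth is unknown, and whether counting used strand is not given in the sources used here. A mean over 2 replicates keeps no spread, so the planned limma test was replaced by a description.

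From these values, log2(FPKM + 1) differences were computed within each table for genes whose mean of both columns reached 1 FPKM, with a limit of 2-fold (Python 3.11.15, pandas 2.3.3, numpy 2.4.6). The trend with genomic span was a lowess fit over all genes with a fraction of 0.3 (statsmodels 0.14.6). The calculation was tested on simulated data with little noise, in which changes well past the limit were planted in well expressed genes. It does not cover low levels, changes near the limit or the unknown spread between replicates. Gene starts in the tables count from 0, and 1 was added. Promoter windows came from RefSeq. The 10 genes and the 12 other gene lists were chosen with earlier results of these data known. All 10 genes are named, and of each other list up to 3 genes of largest absolute difference, with other genes given as values beside a result chosen after their values were seen. The values of 1 gene of these lists are not reported here. The 9 alternatives changed the pseudocount, the minimum, the scaling or the span trend. Scaling by the sum without ribosomal protein genes was included because these 85 genes held 30.6% and 26.3% of the summed FPKM of KLF3-GFP-negative and KLF3-GFP-positive cells, and 28.9% and 38.9% with GFP and KLF3.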

Additional observations from a re-analysis of the deposited data

How the results depend on the processing

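No paired analysis was possible because each group has 1 column of averaged values, and for the same reason no replicate could be left out and no limma test was run. No gene of the 10 changed direction under any of the 9 alternatives, 8 for the genes that a minimum of 5 FPKM removes. Nid2 on overexpression came close to 0, at -0.04 with the span trend removed and -0.01 with median-ratio scaling as well. The median of 4.21 in sorted cells became 4.33 with a pseudocount of 0.1, 4.34 with a floor of 0.1 FPKM and no pseudocount, 4.78 over the 7 genes left by a minimum of 5 FPKM, 4.19 with median-ratio scaling, 4.11 with quantile normalization, 4.09 with equal sums outside ribosomal protein genes and 4.09 with the span trend removed, with or without median-ratio scaling. The median of 1.70 on overexpression became 1.71 with the lower pseudocount or the floor, 1.91 with median-ratio scaling, 1.38 with quantile normalization, 1.47 with equal sums outside ribosomal protein genes, 2.06 with the span trend removed and 2.10 with both. The number of downregulated genes on overexpression was 0 in place of 1 with the span trend removed, with or without median-ratio scaling, because Nid1 then stood at -0.99 and -0.97. Nid1 in sorted cells passed the limit with the pseudocount of 0.1 (1.30) and the floor (1.36), which gave 9 upregulated genes. With equal sums outside ribosomal protein genes Lama5 (0.86) and Hspg2 (0.96) no longer passed it on overexpression, which left 6, and the median of all genes moved from -0.18 to -0.37. The values near 0.1 FPKM, where the tables are cut off, limit the folds of the genes that are low in KLF3-GFP-negative cells.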

Other observations

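Fibronectin, a matrix protein that is no structural part of the collagen IV and laminin networks, was looked up after the values of the 10 genes were seen. Fn1 stood at 6.83 FPKM in KLF3-GFP-negative cells against 3.32 FPKM in KLF3-GFP-positive ones, a log2 difference of -0.86 that did not pass the 2-fold limit. On overexpression it fell from 163 FPKM with GFP to 62.1 FPKM with KLF3, a log2 difference of -1.38. Fn1 was thus above Sparc in GFP-overexpressing cells and below Lamb1 and Lamc1 in KLF3-overexpressing cells.

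Among the 40 genes upregulated more than 4-fold in both experiments, the order by the difference in sorted cells placed Srgn, which encodes the proteoglycan core serglycin, first. It went from 2.29 to 1860 FPKM in the sorted cells, and after overexpression from 10.35 to 142 FPKM. Hs3st1, which encodes a heparan sulphate sulphotransferase, went from 0.16 to 52.6 FPKM and from 1.57 to 11.8 FPKM. Htra1, which encodes a secreted serine protease, went from 1.70 to 73.6 FPKM and from 6.26 to 56.6 FPKM. These genes were chosen from the 40 after their values were seen, and none of them belongs to the lists of matrix genes above.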
